A study of Mus musculus with 6 samples.

Results

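The sestrins, together with stress and metabolism genes linked to p53, formed a set of 7 genes, namely Sesn1, Sesn2, Sesn3, Dglucy, Slc19a2, Ddit4 and Phlda3, out of 53618 named genes in the table. They were chosen by name, but Sesn2, Dglucy and Slc19a2 were picked because they are higher in the libraries labelled tamoxifen 2 and 3 than in the oil libraries. For these 3 genes the oil and tamoxifen values are therefore a description and carry no test. Ddit4, Sesn1, Sesn3 and Phlda3 are given with their tests.

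RNA was sequenced from GFP+Lin−c-Kit+ splenocytes of mice that carried AE9a leukemia, 1 library per mouse and 3 mice per group. AE9a is a shortened form of the AML1-ETO fusion and causes acute myeloid leukemia in mice, and GFP marks the transduced cells. All 6 mice received Usp18+/f UBCER-Cre leukemia cells, which carry 1 floxed Usp18 allele and a Cre recombinase under a ubiquitous promoter that tamoxifen activates. Once sick, they were injected with oil (labelled Usp18+/f) or tamoxifen (labelled Usp18+/Δ), and the cells were collected 3 days after the first injection. Per the study's methods, its mice were of both sexes and aged 8 to 12 weeks. The cells began as fetal liver cells transduced with a retrovirus and were re-transplanted into sub-lethally irradiated mice, so host cells could remain in the spleen. With no Cre-free group given tamoxifen among these libraries, tamoxifen, Cre activity and loss of the Usp18 allele cannot be told apart.

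The recovered reads numbered 19172471 to 23785143 per library. The library labelled tamoxifen 1 stood apart, with a median correlation with the others of 0.913 against 0.981 to 0.990 for the rest, and 0.00923% mitochondrial reads against 1.01% to 1.56%. Its values also leaned on GC content, so the fold change of each of the 7 genes is given with and without it. Usp18 itself (217, 214 and 176 normalized counts with oil) was higher with tamoxifen, at 477, 329 and 284, though that label names loss of an allele. Counts per gene do not show which allele the reads came from, so the deletion was not measured here. Directions therefore refer to libraries as labelled. The log2 fold change of Usp18 was 0.81, or 0.60 without tamoxifen 1. Over all 6 libraries its limma adjusted p was 0.666 and its DESeq2 adjusted p 0.308. By qRT-PCR and western blot, the study reported stronger interferon and irradiation responses in its Usp18+/Δ cells. Whether labels were exchanged was not tested. Of the 6 markers expected in the sorted cells, Kit ran from 4687 to 10976 normalized counts and Myb from 3097 to 6692. Spi1 ran from 1523 to 3428 and Cd34 from 201 to 1052, while Ptprc stayed at 8.08 or below and Mpo at 20.2 or below.

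Sestrins are small stress-induced proteins. Sestrin 1 and sestrin 2 bind leucine and, in its absence, hold back GATOR2, the complex that lets amino acids switch on the growth kinase mTORC1. p53 is known to induce Sesn1 and Sesn2, the ATF4 stress pathway also induces Sesn2, and FOXO factors induce Sesn3. Ddit4 (REDD1) restrains mTORC1 through the TSC complex and is induced by DNA damage, hypoxia and glucocorticoids. Phlda3 competes with AKT for membrane phosphoinositides through its PH domain. Slc19a2 is a high-affinity thiamine transporter of the plasma membrane, and Dglucy is the mitochondrial enzyme that converts D-glutamate to a cyclic form. These roles are background and were not measured here.

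Every tamoxifen library lay above every oil library for Sesn2, Dglucy, Slc19a2 and Ddit4, every one lay below for Sesn1, and the groups overlapped for Sesn3 and Phlda3. Over all 12298 genes tested, 7.86% had all tamoxifen values above all oil values and 9.69% had them below. The fold of the group means was 3.12 for Ddit4, 3.08 for Dglucy, 2.44 for Sesn2 and 1.96 for Slc19a2. Without tamoxifen 1 these were 2.42, 2.33, 1.99 and 2.04. Thus Ddit4, Dglucy and Sesn2 came out smaller without this library and Slc19a2 slightly larger. Sesn2, Dglucy and Slc19a2 are in the set because of this contrast, so their part in the count of 4 is fixed by the choice.

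Over the 6 libraries limma called 0 of 12298 genes, or 0%, at the threshold of 0.05 on the adjusted p, and 550 genes had an unadjusted p under 0.05. edgeR on the recovered reads gave 0 as well, with 594 at an unadjusted p under 0.05, and DESeq2 gave 71. Without tamoxifen 1, limma called 38 genes higher, or 0.309%, and 3 lower, or 0.0244%. In DESeq2 over all 6 libraries 69 genes were higher, or 0.447% of 15444 genes given an adjusted p, and 2 were lower, or 0.013%.

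**Figure D1:**
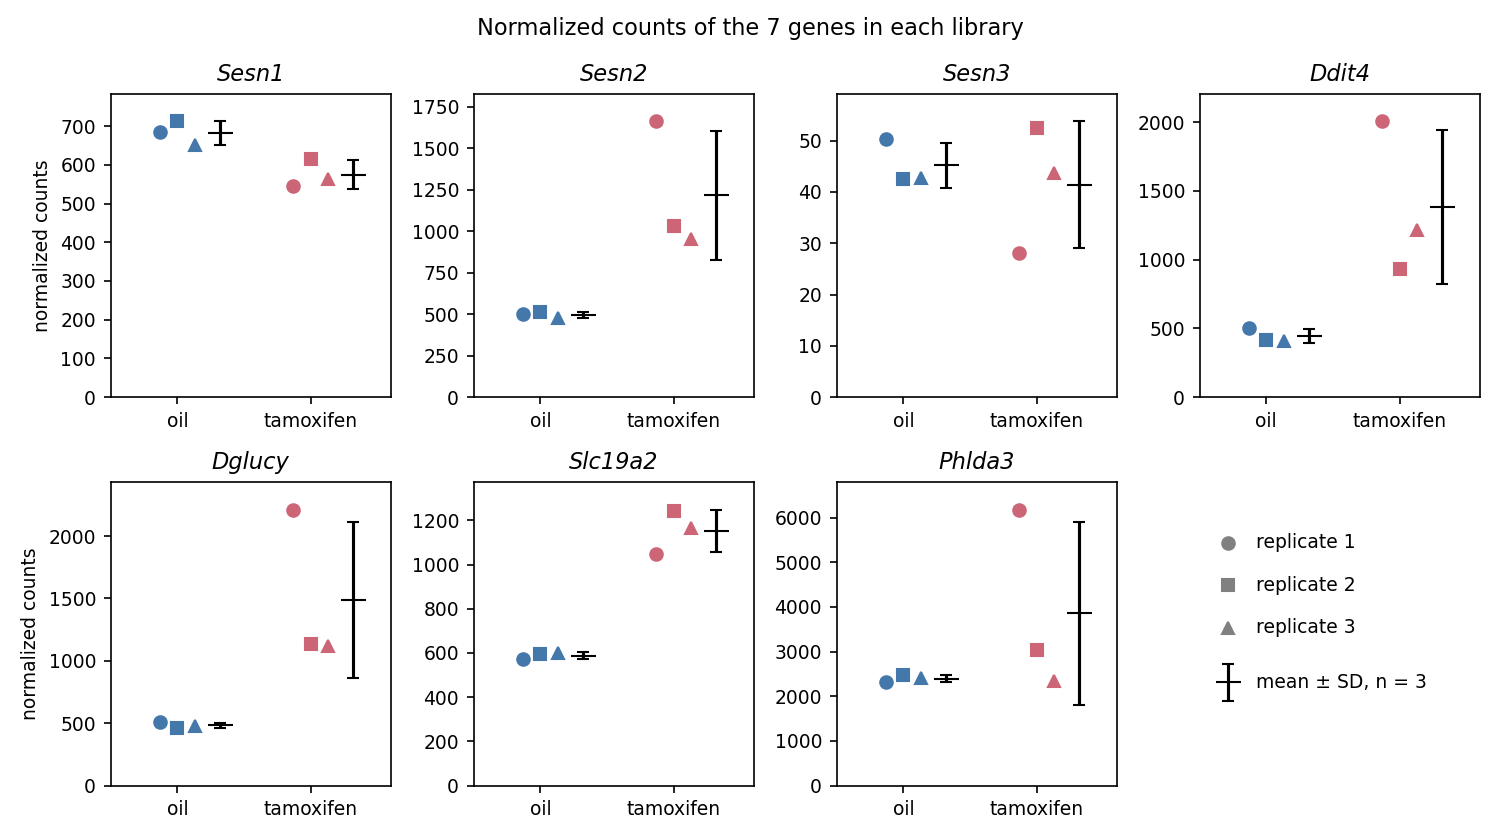
Normalized counts of each of the 7 genes in every library, on linear axes that start at 0 and differ by panel, with a symbol for each replicate number and the mean ± SD (n = 3) beside each group. Sesn2, Dglucy, Slc19a2 and Ddit4 lie above the oil values in all 3 tamoxifen libraries, and tamoxifen 1 is highest for Sesn2, Dglucy, Ddit4 and Phlda3.

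The promoters of the 4 genes that were higher in each tamoxifen library are shown because these are the genes on which the contrast turns. Sequences are RefSeq windows of 300 bases on GRCm38.p6, from 250 bases before to 50 after the start site, 5′ to 3′ on the gene's strand, with 8 windows for the 7 genes since Sesn1 has 2. Capitals mark matches on either strand to the CCAAT box (CCAAT), the GC box (GGGCGG), the hypoxia element (ACGTG) or the NRF2 core (TGACNNNGC). Sesn2 lies at chr4:132510407-132510706 on the minus strand, Dglucy at chr12:100778807-100779106 on the plus strand, Slc19a2 at chr1:164248796-164249095 on the plus strand and Ddit4 at chr10:59951721-59952020 on the minus strand.
Sesn2: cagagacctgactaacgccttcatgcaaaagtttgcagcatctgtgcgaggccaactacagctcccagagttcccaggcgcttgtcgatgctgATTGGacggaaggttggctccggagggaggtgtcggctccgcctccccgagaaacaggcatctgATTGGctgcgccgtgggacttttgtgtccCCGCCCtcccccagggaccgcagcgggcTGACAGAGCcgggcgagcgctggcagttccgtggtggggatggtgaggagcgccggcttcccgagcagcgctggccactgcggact
Dglucy: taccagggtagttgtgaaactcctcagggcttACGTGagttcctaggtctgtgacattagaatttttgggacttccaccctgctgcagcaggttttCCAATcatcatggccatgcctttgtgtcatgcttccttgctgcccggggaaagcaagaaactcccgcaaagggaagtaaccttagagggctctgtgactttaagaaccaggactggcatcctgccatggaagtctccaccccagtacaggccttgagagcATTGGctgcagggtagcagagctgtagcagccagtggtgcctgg
Slc19a2: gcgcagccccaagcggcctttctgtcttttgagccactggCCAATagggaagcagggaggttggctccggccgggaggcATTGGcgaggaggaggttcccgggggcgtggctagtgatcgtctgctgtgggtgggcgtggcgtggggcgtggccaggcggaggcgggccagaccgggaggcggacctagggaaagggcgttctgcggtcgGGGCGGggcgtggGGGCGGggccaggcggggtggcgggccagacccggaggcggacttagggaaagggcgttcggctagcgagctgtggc
Ddit4: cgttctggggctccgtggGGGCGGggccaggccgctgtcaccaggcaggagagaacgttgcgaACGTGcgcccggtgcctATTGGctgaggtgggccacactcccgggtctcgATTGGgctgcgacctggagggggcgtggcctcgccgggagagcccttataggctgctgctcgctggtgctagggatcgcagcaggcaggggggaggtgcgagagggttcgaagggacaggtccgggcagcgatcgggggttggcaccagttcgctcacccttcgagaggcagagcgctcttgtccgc

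Dglucy differed from the others in base composition. Its window had 53% GC and 3 CpG dinucleotides, while those of Sesn2, Slc19a2 and Ddit4 had 64.7%, 72.0% and 69.0% GC and 23, 28 and 26 CpGs. Among all 32851 promoters of this length the median was 52.7% GC with 7 CpGs. CCAAT was found in 7 of the 8 windows, all but that of Phlda3, against 37.4% of all promoters. GGGCGG was found in 7, all but that of Dglucy, against 35.7%. ACGTG stood in the windows of Ddit4, with its first base at -187 from the start site, and of Dglucy, at -218, and in 19.6% of all promoters. TGACNNNGC was matched in Sesn2 alone, at -36, and in 12.4% of all promoters. The FOXO element GTAAACA, present in 3.65% of all promoters, was matched in the upstream Sesn1 window on the opposite strand. The p53 half-site, held by 8.36% of all promoters, was matched in the downstream Sesn1 window as AAGCTTGTTT, at -173. The ATF4 element TGATGNAA (3.97% of promoters) and the interferon-stimulated response element (GAAA, any 2 bases and GAAA again, 3.44%) had no match in the 8 windows. A match describes letters in this window, and sites elsewhere in the genes were not searched. In the Sesn1 window with the half-site, 3 GC boxes run into one another.

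Sestrin 2 was the sestrin that was higher with tamoxifen. Sesn2 (ENSMUSG00000028893.8, chr4:132492032-132510501, minus strand, GRCm38, 10 merged exons) had 502, 513 and 477 normalized counts in the oil libraries and 1663, 1031 and 953 in the tamoxifen libraries. Each tamoxifen library exceeded every oil library, and tamoxifen 1 was the highest. The means were 498 ± 18.4 (SD, n = 3) with oil and 1215 ± 389 (SD, n = 3) with tamoxifen, and the log2 fold change was 1.24 (SE 0.24). Without tamoxifen 1 it was 0.99, and with a correction for GC content it was 0.96. Counts of 514 to 1301 reads per library lie behind these values.

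Sesn1 pointed the other way. Sesn1 (ENSMUSG00000038332.13, chr10:41809935-41908424, plus strand, 11 merged exons), which p53 also induces, had 684, 712 and 650 normalized counts with oil and 544, 616 and 563 with tamoxifen. All 3 tamoxifen libraries were lower than all 3 oil libraries. The log2 fold change was -0.25 (SE 0.15), its 95% interval ran from -0.60 to 0.11, and the limma adjusted p was 0.666. Without tamoxifen 1 it was -0.21 with a limma adjusted p of 0.435. With 3 libraries a side, the smallest two-sided p that an exact permutation test allows is 0.1.

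Sesn3 (ENSMUSG00000032009.8, chr9:14275067-14333101, plus strand, 11 merged exons), the FOXO-linked sestrin, rested on 22 to 56 reads per library. It had 50.3, 42.4 and 42.7 normalized counts with oil and 28.1, 52.5 and 43.7 with tamoxifen. The groups overlapped, and tamoxifen 1 was the lowest library. The log2 fold change was -0.16 (SE 0.32, interval -0.92 to 0.59, limma adjusted p 0.799). Without tamoxifen 1 it was 0.087, with an interval of -0.46 to 0.64, so the sign depends on that library. These intervals still hold changes of moderate size in either direction.

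Divided by exon length, to compare levels of different genes, Sesn1 and Sesn2 were near each other with oil and far apart with tamoxifen. Sesn1 had 171 ± 7.80 normalized counts per kb of exon with oil and 144 ± 9.37 with tamoxifen (SD, n = 3 each). Sesn2 had 143 ± 5.30 and 349.8 ± 112, and Sesn3 2.96 ± 0.292 and 2.71 ± 0.809. The ratio of Sesn2 to Sesn1 was 0.842, 0.826 and 0.841 in the oil libraries. It was 3.50, 1.92 and 1.94 in the tamoxifen libraries, with tamoxifen 2 and 3 close to each other. Sesn2 made up 44.9% to 45.3% of the summed sestrin level with oil, and 77.5%, 65.2% and 65.5% with tamoxifen. The summed level was 319, 329 and 303 per kb with oil, and 617, 455 and 418 with tamoxifen. Sesn2 was picked for being higher, so its share is a description. In tamoxifen 1, protein-coding genes with the GC content of Sesn2 had a median log2 difference from oil of 0.93. Those with the GC content of Sesn1 had a median of 0.069, and the part of GC content in the ratio was not tested.

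**Figure D2:**
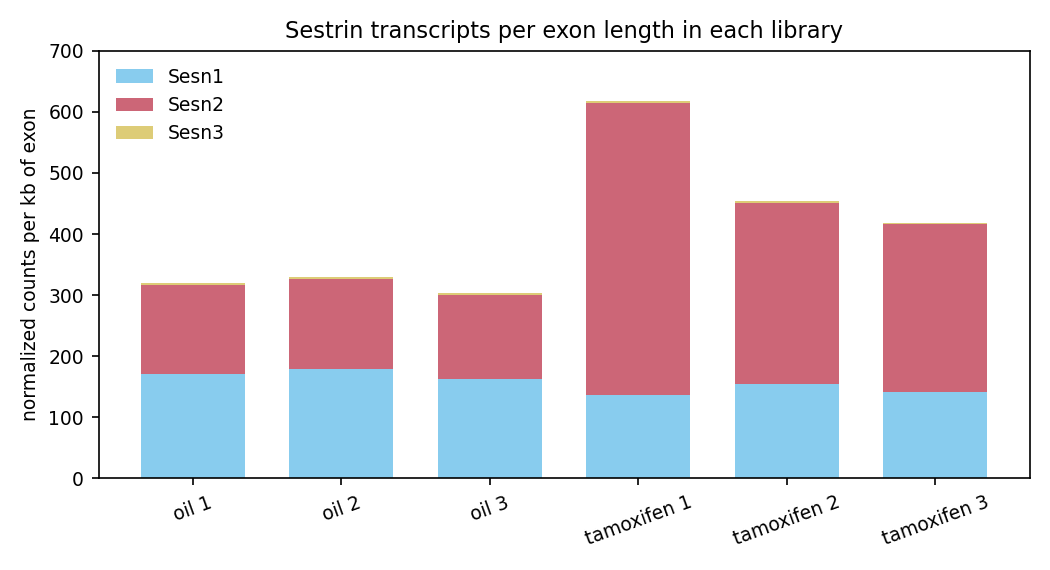
Stacked bars of normalized counts per kb of exon for Sesn1, Sesn2 and Sesn3 in each of the 6 libraries, starting at 0. The Sesn2 block takes 44.9% to 45.3% of each oil bar and 65.2% to 77.5% of each tamoxifen bar, and Sesn3 is a thin line on top.

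Ddit4, the TSC-linked brake on mTORC1, was the gene of the 4 with a test that differed most between the groups. Ddit4 (ENSMUSG00000020108.4, chr10:59949669-59951834, minus strand, 3 merged exons) had 504, 418 and 408 normalized counts with oil and 2007, 928 and 1213 with tamoxifen. No tamoxifen library reached down to the oil values, and tamoxifen 1 was the highest. The means were 443 ± 52.9 and 1383 ± 559 (SD, n = 3 each), and the log2 fold change was 1.57 (SE 0.30, 95% interval 0.86 to 2.28). In limma the unadjusted p was 0.00137 and the adjusted p 0.580, so it did not pass over all 6 libraries. Without tamoxifen 1 the log2 fold change was 1.26 (SE 0.14, limma adjusted p 0.00544). DESeq2 over all 6 libraries gave 1.64 with an adjusted p of 0.000809. Limma with a weight per library gave 1.39 with an adjusted p of 8.2e-05. In that fit tamoxifen 1 had a weight of 0.0377, against 0.956 to 3.37 for the rest. The weighted fit thus comes near to leaving tamoxifen 1 out, and it called 782 of 12298 genes. The call thus differed between methods and with the library left out, since edgeR on the recovered reads gave an adjusted p of 0.470, and across the 19 alternatives the adjusted p ran from 8.2e-05 to 0.861. Its direction was the same in each of them. Its relative Ddit4l had 0 reads in the oil libraries and 3.83, 1.01 and 0.909 normalized counts with tamoxifen, too few to compare.

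Phlda3, the inhibitor of AKT, rested on 2560 to 4835 reads per library. Phlda3 (ENSMUSG00000041801.5, chr1:135766119-135769136, plus strand, 3 merged exons) had 2313, 2470 and 2400.3 normalized counts with oil and 6179, 3042 and 2341 with tamoxifen. The tamoxifen libraries did not move together, since tamoxifen 3 lay within the range of oil and tamoxifen 1 stood far above all others. The log2 fold change was 0.56 (SE 0.35, interval -0.27 to 1.39, limma adjusted p 0.666). Without tamoxifen 1 it was 0.16 with a limma adjusted p of 0.600. Its relatives with related PH domains were scarcer. Phlda2 had 132, 45.5 and 68.2 normalized counts with tamoxifen against 29.8 ± 1.05 with oil (log2 fold change 1.29, limma unadjusted p 0.018), and the log2 fold change of Phlda1 was -0.63, or -0.39 without tamoxifen 1, with overlapping groups.

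Dglucy, the D-glutamate cyclase, gave the second largest fold of means. Dglucy (ENSMUSG00000021185.16, chr12:100779057-100896981, plus strand, 21 merged exons) had 507, 460 and 481 normalized counts with oil and 2212, 1132 and 1121 with tamoxifen. The last 2 tamoxifen libraries were close to each other, and tamoxifen 1 was higher than both. The log2 fold change was 1.55 (SE 0.29), and 1.22 without tamoxifen 1.

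Slc19a2, the thiamine transporter, was the steadiest of the picked genes. Slc19a2 (ENSMUSG00000040918.12, chr1:164249046-164265385, plus strand, 6 merged exons) had 571, 594 and 599.8 normalized counts with oil and 1049, 1242 and 1164 with tamoxifen. Here tamoxifen 1 was the lowest of its group, unlike for Sesn2, Dglucy and Ddit4. The log2 fold change was 0.96 (SE 0.15), and 1.03 without tamoxifen 1. The picked genes rested on 616 to 1280 reads for Slc19a2 and 477 to 1731 for Dglucy. Of the related transporters, Slc19a1 (folate) had a log2 fold change of 0.29, or 0.093 without tamoxifen 1, with overlapping groups, and Slc19a3, the other thiamine transporter, had 0 reads in each library, which allows up to 3 reads per library from counting error alone.

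The members differ in GC content, and the library labelled tamoxifen 1 tracks GC content across genes. In that library the median log2 difference of tested protein-coding genes from the oil mean was -2.03 at 36% to 38% GC. It climbed to 1.30 at 64% to 66% GC. Sesn2 (58.7% GC) was 1.74 above the oil mean there, against a median of 0.93 for 627 protein-coding genes within 1 point of its GC content. Ddit4 (57.9% GC) was 2.18 above, against 0.91 for such genes, and Phlda3 (62.6% GC) 1.37 above, against 1.18. Dglucy (51.2% GC) was 2.20 above, against 0.27, and Slc19a2 (48.6% GC) 0.83 above, against -0.095. Sesn3 (45.0% GC) was at -0.66, against -0.57. In tamoxifen 2 and 3, the corresponding values of Sesn2 were 1.05 and 0.94, of Dglucy 1.23 and 1.22, of Slc19a2 1.08 and 0.98, and of Ddit4 1.07 and 1.46. For Phlda3 they were 0.35 and -0.032, and for Sesn1 -0.14 and -0.28. Sesn1 (49.8% GC) was at -0.32 in tamoxifen 1, against 0.069 for genes of like GC content. With the GC correction the log2 fold change was 1.31 for Ddit4 and 0.17 for Phlda3.

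**Figure D3:**
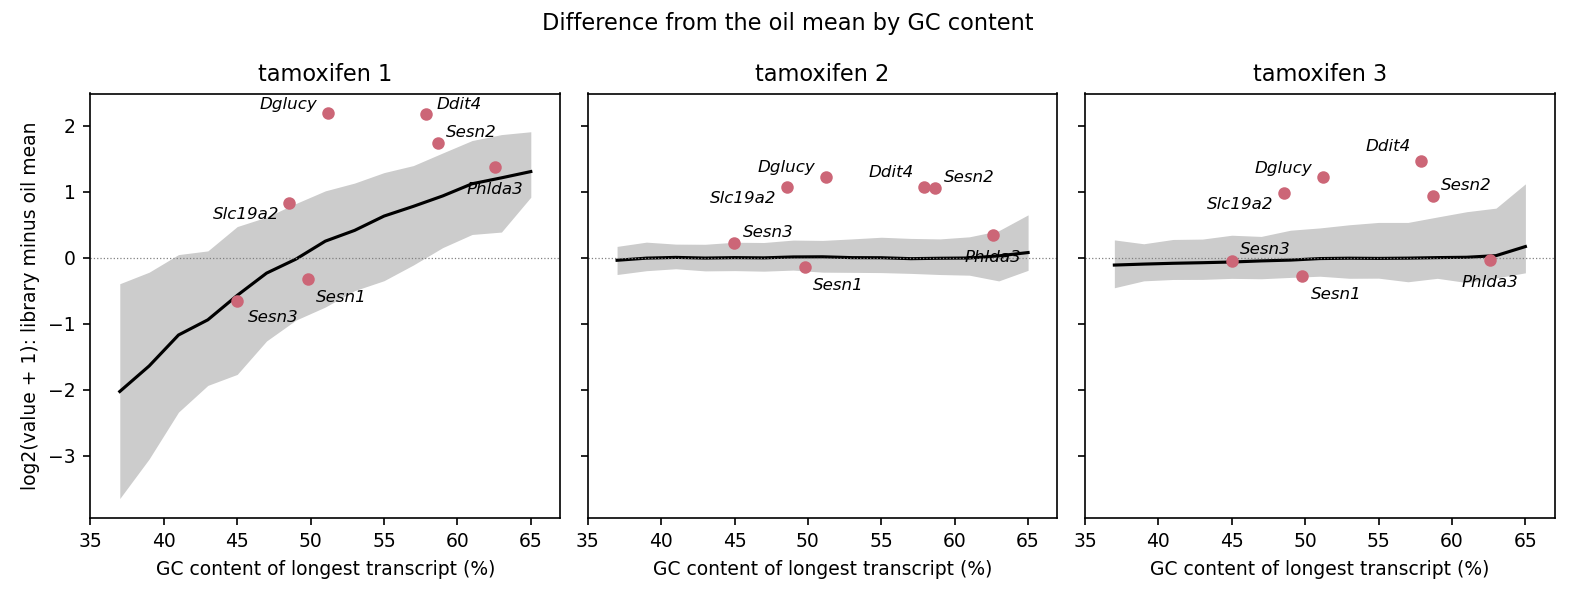
Difference in log2(value + 1) from the oil mean against GC content of the longest transcript, for each tamoxifen library, with the 7 genes as points. The line is the median of tested protein-coding genes in bins of GC content, with the 10th to 90th percentiles shaded. In tamoxifen 1 the line climbs with GC content and Phlda3 lies near it, while Dglucy, Ddit4, Sesn2 and Slc19a2 lie above the line in all 3 panels.

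**Figure D4:**
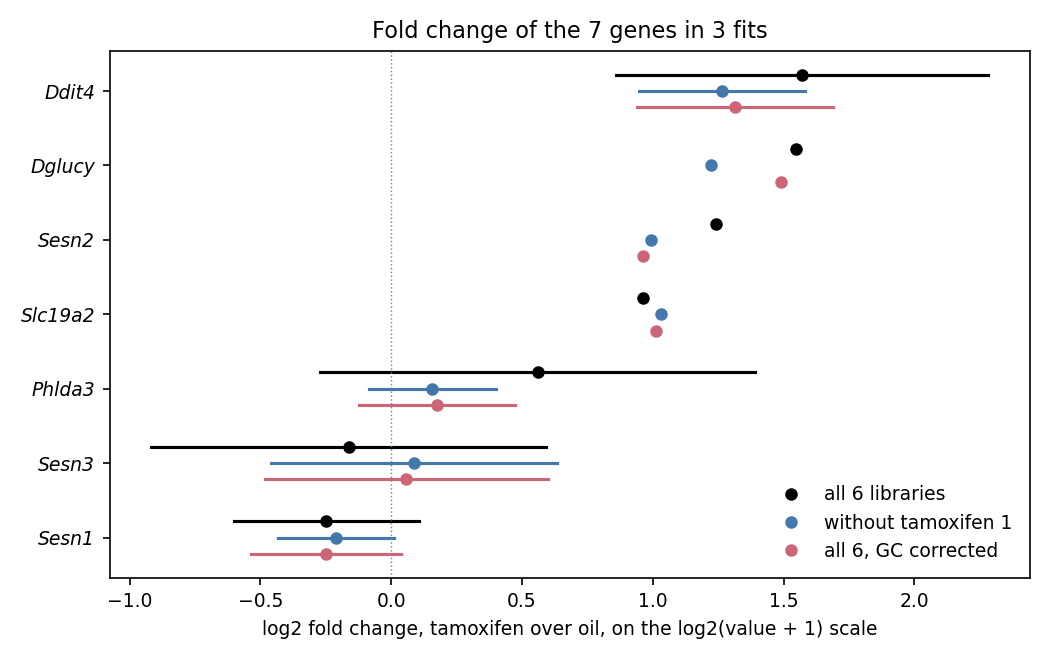
Log2 fold change of each of the 7 genes, tamoxifen over oil, on the log2(value + 1) scale, with lines for the 95% intervals of Ddit4, Phlda3, Sesn3 and Sesn1 and points alone for the 3 genes picked on this contrast, over all 6 libraries, without tamoxifen 1 and with the GC correction. Sesn3 is at -0.16 over all 6 libraries and at 0.087 without tamoxifen 1, and Phlda3 goes from 0.56 to 0.16.

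Across the set, levels per kb of exon were compared as means ± SD (n = 3 each). With oil, Phlda3 was highest at 1536 ± 50.4 normalized counts per kb, followed by Ddit4 at 252 ± 30.1, Sesn1 at 171 ± 7.80, Slc19a2 at 153 ± 3.95, Sesn2 at 143 ± 5.30, Dglucy at 105 ± 5.05 and Sesn3 at 2.96 ± 0.292. With tamoxifen, Phlda3 (2472 ± 1311) and Ddit4 (788 ± 318) again came first. Sesn2 (349.8 ± 112), Dglucy (324 ± 136) and Slc19a2 (300.1 ± 25.2) came next, with overlapping ranges of mean ± SD, followed by Sesn1 and Sesn3. The order of Sesn2, Dglucy and Slc19a2 depends on tamoxifen 1. In tamoxifen 2 and 3, Slc19a2 (324 and 303 per kb) lay above Sesn2 (297 and 274) and Dglucy (246 and 244). Sesn1 stood above Slc19a2, Sesn2 and Dglucy with oil and below all of them with tamoxifen.

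Summed markers of macrophages and neutrophils were higher in every tamoxifen library than in every oil library, and those of the other cell types overlapped. All 8 tested macrophage genes of 10 listed were higher, 4 of them without overlap. Over all genes tested, 48.4% were higher and 7.86% were higher without overlap. Oil means of the 8 ran from 13.9 (C1qa) to 31.7 (Vcam1) normalized counts. The sum over the 10 listed was 109 to 261 normalized counts with oil and 288 to 392 with tamoxifen. Adgre1, a defining macrophage gene, reached 11.1 at most. The summed mast cell and basophil genes were 16627 to 19055 with oil and 18418 to 25399 with tamoxifen. Of the 5, 2 (Cpa3 and Tpsb2) passed as higher in limma without tamoxifen 1, against 0.309% of all genes tested. In this list Tpsb2 (12.2 ± 4.66 with oil and 116 ± 60.3 with tamoxifen, DESeq2 adjusted p 2.44e-05) and Mcpt8 (31.6 ± 8.08 and 78.4 ± 18.2) had every tamoxifen library above every oil library, while the groups overlapped for Cpa3 (log2 fold change 0.74), Fcer1a (-0.32) and Gata2 (0.12). Neutrophil genes summed to 0.898 to 4.64 with oil and 12.7 to 39.6 with tamoxifen, with Ly6g at 0. B cell genes summed to 3.71 to 9.65 and 6.06 to 24.3. T cell genes summed to 37.6 to 65.9 and 32.7 to 98.4, with Cd3e at 0. NK cell genes reached 0.965 at most in any library, and erythroid genes summed to 11871 to 12828 with oil and 10805 to 15766 with tamoxifen. The sort kept GFP+ cells and gated out cells with lineage markers, which is meant to remove mature blood cells. The part of these cells in the values of the 7 genes was not tested. In bulk RNA, more cells of a type and more RNA per cell cannot be told apart.

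To place the 7 genes, 11 lists of related genes were described, and 0 of their genes passed the adjusted threshold in limma when every library was used. At an unadjusted p under 0.05, 3.23% of all genes tested were higher and 1.24% lower, 48.4% had a positive log2 fold change, and the median was -0.017. Of the 18 tested genes of the core p53 list, which counts Trp53 itself, 15 were higher and 3 lower, with a median of 0.61, and 9 were higher at an unadjusted p under 0.05. Cdkn1a, which halts the cell cycle, had 568 ± 70.1 normalized counts with oil and 2796, 1754 and 1898 with tamoxifen, each above every oil library. Its log2 fold change was 1.90 with a limma adjusted p of 0.266, and 1.69 with an adjusted p of 0.00118 without tamoxifen 1. Zmat3, which encodes an RNA-binding protein, had a log2 fold change of 1.17 (limma adjusted p 0.426), and 1.19 with an adjusted p of 0.00808 without tamoxifen 1. DESeq2 over all 6 libraries called 3 genes of this list, Cdkn1a (adjusted p 8.02e-09), Zmat3 (0.000339) and Eda2r (0.0193). Without tamoxifen 1 the median of this list was 0.41 and 4 of its genes passed in limma, namely Cdkn1a, Zmat3, Eda2r and Trp53inp1. Over all genes, limma without tamoxifen 1 called 0.309% higher and DESeq2 called 0.447% higher. The list was drawn up with earlier results of these data known. The 15 metabolic and redox p53 targets tested had a median of 0.29, with 12 higher, 2 of them at an unadjusted p under 0.05, namely Abca1 at 0.78 and Ephx1 at 1.20. Without tamoxifen 1 that median was 0.16, and with the GC correction 0.074. The log2 fold change of Trp53 was 0.12.

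The list for ATF4 and its targets had a median of 0.54, with 11 of 13 tested genes higher and 3 at an unadjusted p under 0.05. Trib3, which binds AKT, had 270 ± 40.3 normalized counts with oil and 953, 373 and 555 with tamoxifen, all above the oil values, and a log2 fold change of 1.12 (limma unadjusted p 0.0171). Without tamoxifen 1 the median of the list was 0.31. Downstream of the sestrins, the 20 tested genes of GATOR, KICSTOR, CASTOR, Rag and Ragulator had a median of -0.046 (-0.051 without tamoxifen 1), with 7 higher, 13 lower and 0 at an unadjusted p under 0.05. Downstream of Ddit4, the 14 tested genes of the TSC and mTORC1 core had a median of 0.072 (-0.053 without tamoxifen 1), with 8 higher, 6 lower and 0 at an unadjusted p under 0.05. Tsc2, the binding partner of Tsc1, was at 0.34, or 0.18 without tamoxifen 1, with overlapping groups. Rptor, the mTORC1 scaffold, was at 0.47, or 0.19 without tamoxifen 1, with every tamoxifen library above every oil library. The Ragulator subunits Lamtor5 (-0.44, or -0.19 without tamoxifen 1) and Lamtor3 (-0.84, or -0.26) had every tamoxifen library below every oil library.

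Of the antioxidant genes, 12 were tested, with a median of 0.057, or 0.0072 without tamoxifen 1. Hmox1, heme oxygenase, had 44.0 ± 18.0 normalized counts with oil and 115, 110 and 149 with tamoxifen, and a log2 fold change of 1.54 (limma adjusted p 0.666, DESeq2 adjusted p 0.0244). The 10 FOXO factors and targets tested had a median of -0.078, which was 0.0024 without tamoxifen 1 and 0.060 with the GC correction, and Klf2 was lower at -1.81 (limma unadjusted p 0.00908). The 11 glucocorticoid and hypoxia genes had a median of 0.20, which was 0.025 without tamoxifen 1, and Fkbp5 (1.30) and Per1 (0.90), both induced by glucocorticoids, had overlapping groups. In 4 genes of the list every tamoxifen library lay below every oil library, namely the hypoxia factor Hif1a (-0.52) and the hypoxia-induced Bnip3 (-1.65, limma unadjusted p 0.0479), Pdk1 (-0.74) and Ankrd37 (-0.34). Without tamoxifen 1 these were -0.20, -0.82, -0.36 and -0.32. In 2 genes every tamoxifen library lay above every oil library, the glucocorticoid-induced Tsc22d3 (0.71, or 0.84 without tamoxifen 1) and the hypoxia-induced Vegfa (0.54, or 0.28). Over all genes tested, 9.69% had every tamoxifen library below every oil library and 7.86% above. The 10 genes of thiamine transport and use had a median of 0.16 (0.021 without tamoxifen 1) and 0 at an unadjusted p under 0.05, the 8 of glutamate metabolism 0.072 and 0, and the 11 of the AKT pathway with PH domain relatives 0.047 (-0.091 without tamoxifen 1) and 1, Phlda2.

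**Figure D5:**
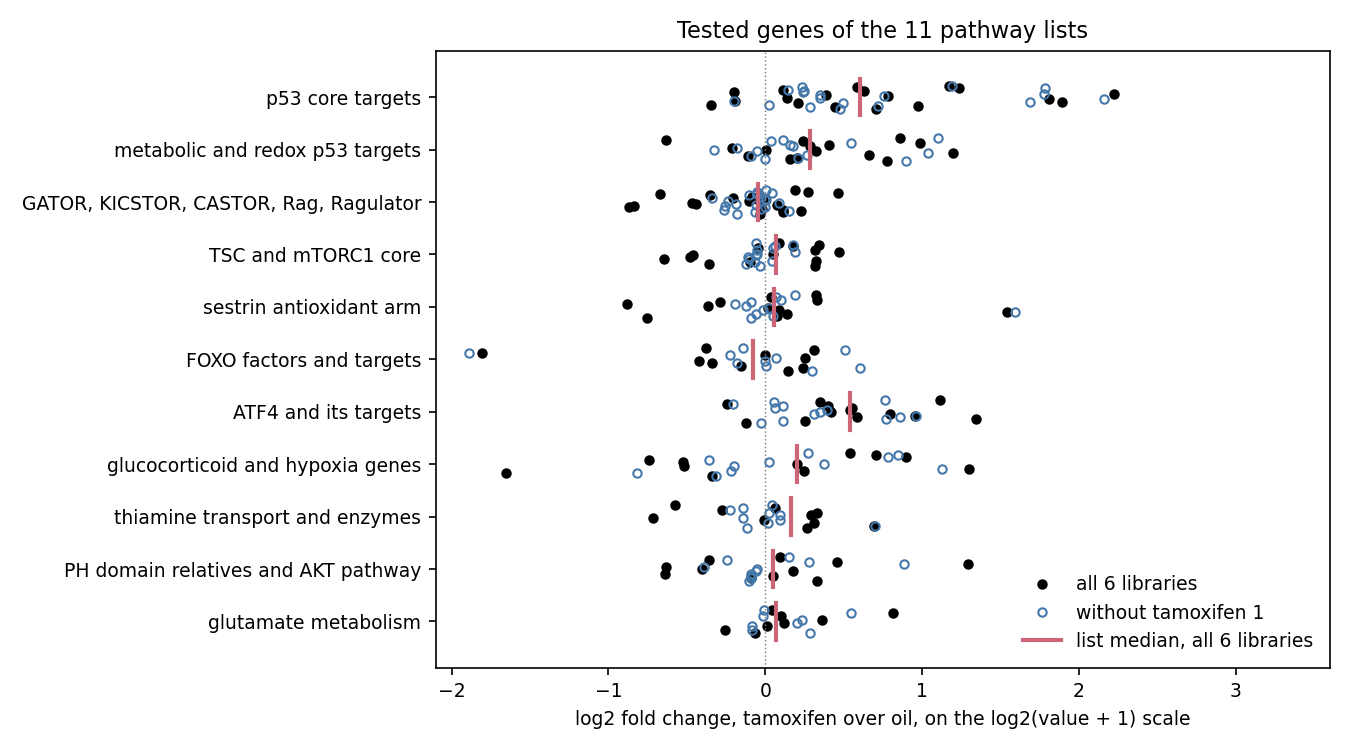
Log2 fold change of each tested gene in the 11 lists, tamoxifen over oil, with filled points for all 6 libraries, open points without tamoxifen 1 and a bar at the list median. The medians of p53 core targets (0.61) and ATF4 and its targets (0.54) lie farthest from 0.

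Genes most like each member over the 6 libraries were found among 12297 others by Pearson's r of log2(value + 1). Each r describes only 6 libraries, which include the split into groups and the departure of tamoxifen 1. For Sesn2 they were Dhx58 (0.999), Dglucy (0.996) and Oas3 (0.996), and for Dglucy they were Dhx58 (0.998), Sesn2 (0.996) and Hsh2d (0.993). Dhx58 and Oas3 encode proteins that sense or act on double-stranded RNA and belong to the interferon-stimulated genes. Sesn2, Dglucy and Slc19a2 were picked for being higher with tamoxifen than with oil. A high r between them, or with other genes higher with tamoxifen, is therefore partly fixed by that choice. Whether these genes share a regulator was not tested. The genes most like Slc19a2 were Gid4 (0.987), Rbfox2 (0.984) and Gzmb (0.983), and for Ddit4 Cyp4f17 (0.997), Hpcal1 (0.995) and Adamts10 (0.995). Phlda3 was most like Tgm1 (0.999), and Myh7b (0.998) was also among its closest. Sesn1 was most like Cenpp (0.992), Mkrn1 (0.990) and 1700006J14Rik (0.989), and Sesn3 most like Smim11 (0.992), Tmem19 (0.991) and Apbb1ip (0.990). An r above 0.95 was shared with 1041 genes by Phlda3, 164 by Sesn3, 103 by Ddit4, 89 by Dglucy, 72 by Sesn2, 51 by Sesn1 and 23 by Slc19a2.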

How the data were processed

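Bulk RNA-seq of 6 libraries, 3 labelled oil and 3 labelled tamoxifen, was analysed, with groups and replicate numbers taken from the sample labels. Per the submitters' processing notes, reads were handled with STAR and DESeq2 on mm10, with no versions named. Strand setting and annotation version are not given in the sources used here. The deposited table is named counts, but the values the authors deposited are a normalized signal, read counts divided by 1 size factor per library. In every library 100% of values were whole multiples of the value of 1 read within 0.001, which recovered whole reads. On these, DESeq2 called 71 genes and edgeR 0. Replicates were separate mice, and counting error alone underlies floors, since reads carry no molecular identifiers.

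Of 55450 rows, 1832 had no gene name (0.0400% to 0.0614% of reads) and stayed out. In 1402 rows a split name was rejoined. GENCODE vM21 (GRCm38) gave coordinates, lengths and GC content, and 51867 names matched 1 symbol. Genes with a name and a value reaching 10 in 3 libraries or more, 12298 in all, were tested with limma 3.58.1 (R 4.3.3) on log2(value + 1), two-sided, with Benjamini-Hochberg adjustment and a threshold of 0.05. This scale understates changes of low genes. The fit was tested on simulated data. Alternatives were pseudocounts of 0.5 and 5, other filters and scalings, edgeR 4.0.16, DESeq2 1.42.0 and voom on recovered reads, a replicate block, a GC correction (loess, span 0.3), library weights and each library left out.

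The members, the 11 pathway lists and the 8 marker lists were chosen with earlier results of these data known. Named genes were the members, Usp18, relatives sharing sequence with a member, the 2 genes of each list with the smallest unadjusted p and the 3 most like each member. Some results that this rule or the checks gave are not reported here. Eda2r, Trp53inp1, Trp53, Tsc22d3, the hypoxia genes and the markers were named after their values were seen.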

Additional observations from a re-analysis of the deposited data

How the results depend on the processing

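Across 19 alternatives the log2 fold change of Sesn1 ran from -0.30 to -0.21, of Sesn2 from 0.96 to 1.39, of Dglucy from 1.22 to 1.71, of Slc19a2 from 0.91 to 1.03 and of Phlda3 from 0.053 to 0.86, each with its direction kept. Sesn3 changed sign under the GC correction (0.057), the GC correction with the replicate block (0.057) and library weights (0.025), and ran from -0.35 to 0.087 with 1 library left out, positive only without tamoxifen replicate 1. Ddit4 passed the threshold in DESeq2 (1.64), with library weights (1.39) and without tamoxifen replicate 1 (1.26), and ran from 1.26 to 1.82 with 1 library left out. Usp18 passed with library weights (0.52) and ran from 0.60 to 0.97 with 1 library left out. The count of genes past the threshold was 0 in limma, 71 in DESeq2, 2 with the GC correction and 782 with library weights, and 0 to 41 with 1 library left out, 41 only without tamoxifen replicate 1. The cause of these shifts was not tested. Libraries with the same number did not deviate together (correlations -0.024, 0.061 and -0.15), and the replicate block gave 0 genes and left the log2 fold change of Ddit4 at 1.57 with a limma adjusted p of 0.729. No alternative moved the median log2 fold change of all genes beyond 0.031 from 0. Depth limits Sesn3, with 22 to 56 reads per library.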
